A study of Homo sapiens with 2 samples.

Results

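The capping genes of human telomeres encode 2 protein complexes, shelterin and CST, and were followed here across an array comparison of cells with and without a hairpin against RAP1. All probe sets annotated to a single one of 9 genes were taken: TERF1, TERF2, TERF2IP, TINF2, ACD and POT1 of shelterin, and CTC1, STN1 and TEN1 of CST. This gave 20 of 49293 non-control probe sets and covered 8 of the 9 genes, of 18132 gene symbols in all. TEN1 was the gene without one, because its only probe set also carried CDK3 and the TEN1-CDK3 readthrough gene. The cells were HCT116, an epithelial line from a human colorectal carcinoma. One culture was infected with a lentivirus carrying a negative-control hairpin (shNC) and the other with a lentivirus carrying the hairpin sh-RAP1-4# (shRAP1). Both were infected at a multiplicity of infection of 20, meaning 20 infectious virus particles per cell, and were harvested after 72 h. Each group held 1 array, and a single hairpin sequence was used. The labels call each array biological replicate 1, so no difference has a replicate error, an SD or a p-value, and every comparison below sets 1 culture beside 1 culture.

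Shelterin coats the telomere repeats. TRF1 (gene TERF1) and TRF2 (TERF2) bind the duplex repeat, RAP1 (TERF2IP) joins through TRF2, TIN2 (TINF2) bridges TRF1 and TRF2 to TPP1 (ACD), and POT1, held by TPP1, binds the single-stranded overhang. Shelterin keeps chromosome ends from being read as DNA breaks, and TPP1 also brings telomerase to them. CST binds single-stranded DNA, ends extension by telomerase and brings DNA polymerase alpha with its primase to fill in the other strand. The name RAP1 is also that of a pair of small GTPases, RAP1A and RAP1B, which are unrelated to telomeres.

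TERF2IP and its neighbour KARS1, the lysyl-tRNA synthetase gene, start back to back on chromosome 16 and point away from each other. The DNA between their annotated starts is printed because it lies upstream of both genes, and their signals can be compared. It spans 107 bases at chr16:75647666-75647772 (RefSeq, GRCh38.p14, plus strand, reading toward TERF2IP), with 65.4% G and C. Capitals mark a TTCCGG, which is the core motif of ETS factors CCGGAA on the other strand, and a GGGCGG, the core of a GC box.

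TERF2IP-KARS1 gap: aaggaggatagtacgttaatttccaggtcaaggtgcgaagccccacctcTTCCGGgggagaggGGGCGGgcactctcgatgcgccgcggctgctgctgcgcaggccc

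Both motifs were searched on both strands, and the copies in the gap do not overlap. Among 34796 RefSeq promoter windows cut to the 107 bases before the start, 9.15% held CCGGAA, 32.3% held GGGCGG and 4.01% held both. The telomere repeat unit TTAGGG, the sequence that TRF1 and TRF2 bind in tandem, was also looked for in windows of 250 bases before to 50 bases after the start. It had no match on either strand in the windows of the 5 capping genes in the table (TERF2IP, TINF2, ACD, POT1 and STN1), against a share of 9.06% of all windows. A match is a description of letters and not a binding site, and a missing match says only that the letters are not in that window.

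TERF2IP was far lower in the culture with the hairpin. Its 1 probe set (11757968_s_at) had an intensity of 1311 in shNC and 624 in shRAP1, so the shRAP1 signal stood at 47.6% of the control. On the log2 scale, on which all differences here are given as shRAP1 minus shNC, the difference was −1.07. Only 1 of the 25101 probe sets past the floor was lower. The floor was the median intensity of all non-control values, 78.0, and a probe set passed when the brighter of its 2 values reached it. The size was 7.20 times the SD of the differences of the 250 probe sets nearest in mean brightness on each side, 0.15, which describes the spread between probe sets and is not a replicate error. The name of this probe set ends in _s_at, a mark of probes that can match several transcripts, and no second probe set was there to compare it with. In RNA from a whole culture, less transcript in every cell and loss of transcript from part of the cells cannot be told apart.

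KARS1, on the other side of the 107-base gap, was at nearly the same level on both arrays. Its brighter probe set (11733807_a_at) had 3824 on shNC and 3928 on shRAP1, a difference of 0.039. The other (200079_PM_s_at) had 2130 and 2165, a difference of 0.024. Both sizes were under 0.4 times the SD of probe sets of like brightness. The 2 genes on either side of the printed gap therefore stood apart on these arrays, TERF2IP by a little over 2-fold and KARS1 by under 1.03-fold. The GTPase genes were lower by much less than TERF2IP. RAP1A had 3 probe sets past the floor at −0.18, −0.21 and −0.23, and RAP1B had 2 at −0.10 and −0.15.

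**Figure D1:**
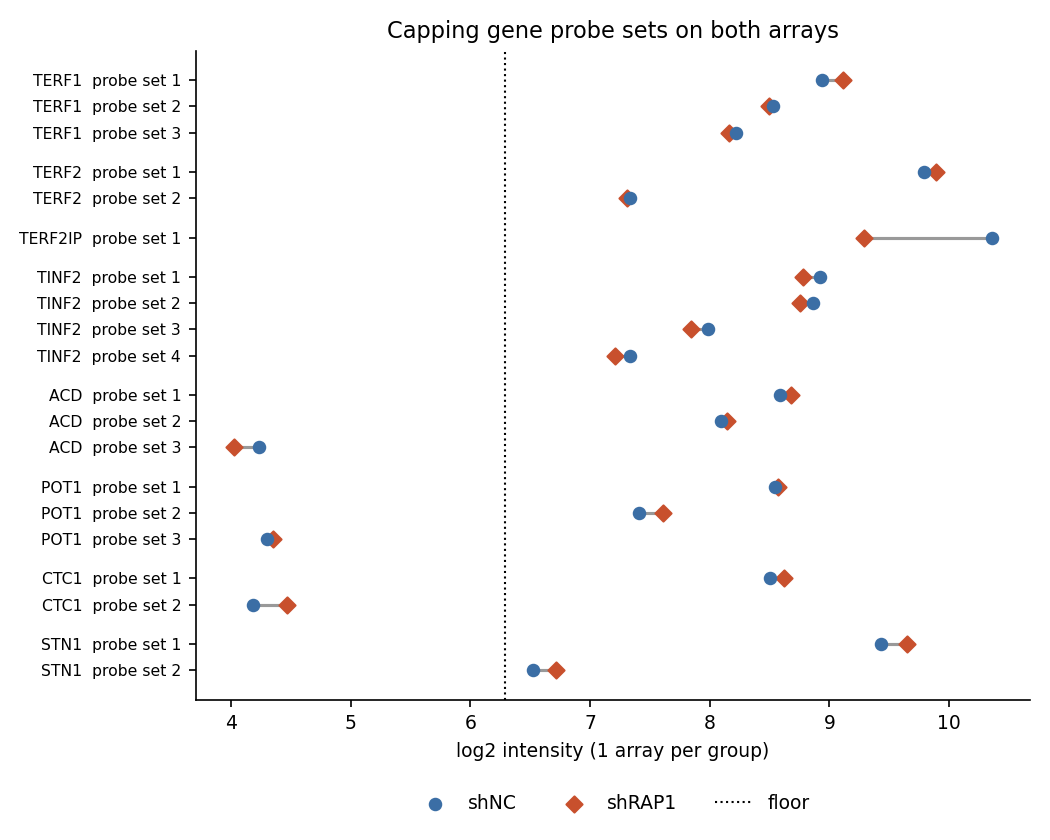
Log2 intensity of each of the 20 capping gene probe sets in shNC (circles) and shRAP1 (diamonds), 1 array per group, with probe sets of a gene ordered by brightness and the floor dotted. TERF2IP drops from 10.36 to 9.29, and the other pairs lie close together. TEN1 has no probe set of its own.

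The other capping genes differed little. Of the 8 capping genes with a probe set past the floor, 1 (TERF2IP) was lower by 1.2-fold or more and 0 were higher by that size. TERF2IP encodes the RAP1 of shelterin and the hairpin is named for RAP1, so its call says nothing about the capping genes as a group. Without it, 0 of 7 were lower and 0 higher by that size. Over all 10437 genes measured, each read from the brightest of its probe sets past the floor, 3.58% were lower and 4.96% higher by 1.2-fold or more, and 0.0192% were lower by 2-fold or more, as TERF2IP was. Read from the brightest probe set, 6 of the 7 other capping genes were on the higher side and 1, TINF2, on the lower, with a median difference of 0.11. Over all genes the median was 0.010, and 53.2% were on the higher side. These 7 differences ran from −0.14 to 0.22, and the SD over all genes was 0.16. Counted by probe set, the lean was smaller: of the 16 probe sets of these 7 genes past the floor, 9 were higher and 7 lower. Of these 16, 12 differed by less than the SD of probe sets of like brightness, as did 70.4% of all single-symbol probe sets past the floor.

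TERF1 and TERF2, whose products bind the duplex repeat, had probe sets of both signs. For TERF1 the brightest probe set (11732463_x_at) had 490 on shNC and 553 on shRAP1, a difference of 0.17. The other pair had 370 and 360 (−0.038), and 298 and 286 (−0.060). All 3 TERF1 probe sets end in _x_at, a mark of probes that can match other transcripts. The sign of the TERF1 difference depends on the probe set read, and the cause was not tested. For TERF2, the anchor of RAP1 in shelterin, the brighter probe set (11730306_at) had 884 and 951, a difference of 0.11. Its dimmer probe set, an _x_at one, had 161 and 158, a difference of −0.022. Opposite signs are common on this array: they occurred in 28.1% of 2816 genes with 2 probe sets past the floor and in 44.7% of 1657 genes with 3.

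For TINF2, the bridge of the complex, all 4 probe sets were lower in shRAP1. The brightest (11729449_s_at) had 483 on shNC and 438 on shRAP1, a difference of −0.14. The second had 465 and 432 (−0.11), the next 254 and 229 (−0.15) and the dimmest 161 and 148 (−0.12). The brightest ends in _s_at and the second in _x_at, marks of probes that can match several transcripts or other ones. The TINF2 probe sets spanned 0.039 on the log2 scale, against a median span of 0.18 over 831 genes with 4 probe sets past the floor. Each of the 4 differences was smaller than the SD of probe sets of like brightness, the largest at 0.96 times it. The 4 probe sets report on the same RNA samples and are not replicates of the condition.

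ACD and POT1, which together reach the overhang, differed by under 0.1 on their brightest probe sets, and a dimmer one of POT1 differed by 0.20. ACD, encoding TPP1, had 384 and 410 on its brightest probe set (11718424_at), a difference of 0.095, and 273 and 282 on the next, a difference of 0.046. The remaining ACD probe set lay far below the floor at 18.9 and 16.3 and gives no usable difference. POT1 had 374 and 381 on its brightest probe set (11733079_a_at), a difference of 0.026. Its next had 170 and 196, a difference of 0.20 or 1.25 times the SD at that brightness, so the probe sets of POT1 differed more from each other than those of ACD. The remaining POT1 probe set was below the floor at 19.7 and 20.4.

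Both measured genes of CST were on the higher side in shRAP1, as were 53.2% of all genes. STN1, the subunit that with TEN1 resembles a replication protein A core, had 688 on shNC and 803 on shRAP1 on its brighter probe set (11722653_a_at). This difference of 0.22 was the largest of the 8 gene values after TERF2IP, at 1.57 times the SD of probe sets of like brightness. The dimmer STN1 probe set, near the floor, had 92.0 and 105, a difference of 0.19. Of all probe sets past the floor, 15.1% had a difference at least as large in size as the brighter one of STN1. CTC1, the large subunit, had 363 and 393 (11734894_at), a difference of 0.11 or 0.73 times the SD at that brightness. A difference at least that large in size was found in 44.2% of probe sets past the floor. The second CTC1 probe set lay below the floor at 18.2 and 22.1. The probe set that TEN1 shares with CDK3 had 280 and 275, a difference of −0.026, and cannot be assigned to TEN1.

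**Figure D2:**
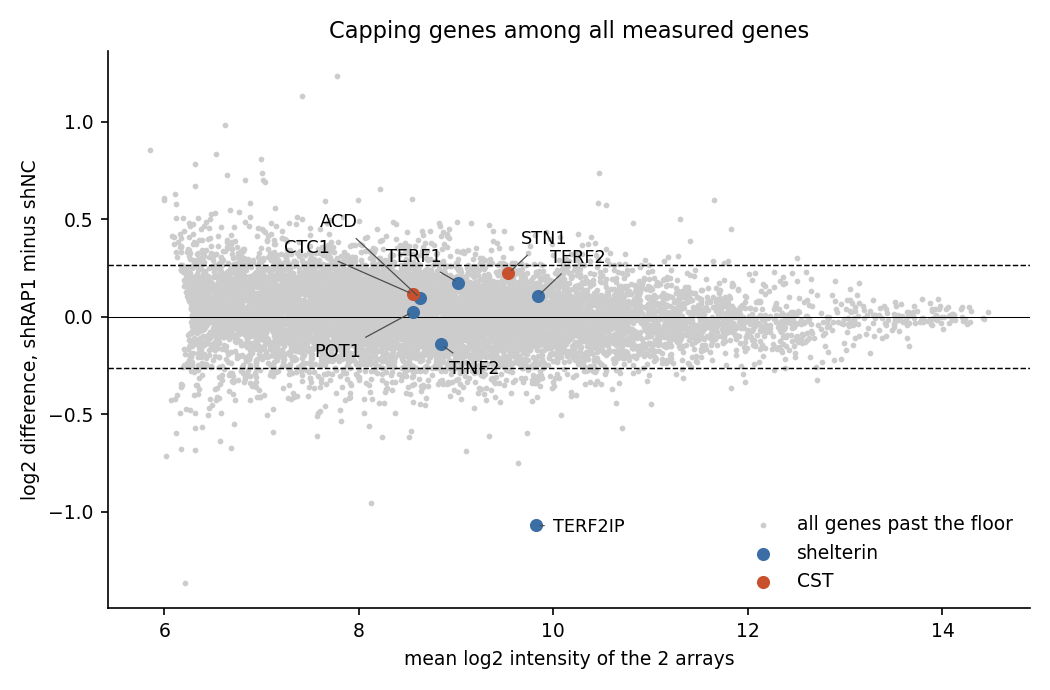
Log2 difference (shRAP1 minus shNC) against mean log2 intensity of the 2 arrays for 10437 genes (grey), with 6 shelterin genes (blue) and 2 CST genes (red), each by its brightest probe set; dashed lines mark 1.2-fold. TERF2IP lies at −1.07 below the cloud, and the 7 others lie inside the dashed lines, between −0.14 and 0.22.

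Spike-in RNAs were also read on both arrays. Polyadenylated control RNAs, which are carried through labelling with the sample, had median differences of −0.30 (dap), −0.41 (lys), −0.29 (phe) and 0.41 (thr). Controls added at hybridisation had medians between −0.027 and −0.0024. Each capping gene other than TERF2IP differed by less in size than the medians of these labelling controls. Most probe sets did the same. Of all probe sets past the floor, 8.13% had a difference of the size of −0.279 or more, and every labelling-control median was larger in size. Lying below these medians therefore does not set the capping genes apart. Those medians describe a few added RNAs and are not an error limit for the capping genes. The part of the labelling step in the capping gene differences was not tested. Of the markers of cell type, 8 of 9 epithelial markers passed the floor, VIL1 being below it, with a summed intensity of 35385 on shNC and 36075 on shRAP1. Of 5 leukocyte markers with a probe set 1 passed (TYROBP), of 6 fibroblast markers 0 and of 4 endothelial markers 2 (VWF and KDR), with summed intensities between 158 and 270.2 in each list and group. Below the floor on both arrays were PTPRC, CD3E, CD14 and LYZ of the leukocyte list, all fibroblast markers, and PECAM1 and CDH5 of the endothelial list.

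Genes that work with the capping complexes were taken as 7 lists. Of 56 such genes measured, 35 were on the lower side and 21 on the higher. Over all 10437 genes, 4884 were on the lower side and 5550 on the higher. By 1.2-fold or more, 5 were lower (8.93%) and 1 higher (1.79%), against the shares of 3.58% and 4.96% over all genes given above. Of the 5, POLA2 passed only narrowly, at 1.201-fold. The lists were chosen with earlier results of these data known. Comparisons of the lists with all genes, here and below, are therefore not independent of these data. The median over the 56 was −0.038.

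DNA polymerase alpha-primase, the enzyme that CST brings to telomeres and that also starts every DNA strand in replication, had the lowest median of the 7 lists, −0.24 over 4 genes. POLA1, the catalytic subunit, had 478 on shNC and 389 on shRAP1, a difference of −0.30 on 1 probe set. POLA2, the accessory subunit, had 154 and 128 (−0.26), with its other probe set at −0.33. PRIM2, the large primase subunit, was at −0.22 and −0.26 on its 2 probe sets, while the catalytic primase gene PRIM1 stood at 830 on both arrays. These sizes, like those of the capping genes other than TERF2IP, were within the range of the labelling-control medians, −0.41 to 0.41. That range takes in nearly every probe set, so lying within it neither discounts nor backs these differences. Of all probe sets past the floor, 1.94% had a difference of 0.405 or more in size. The part of the labelling step in the polymerase alpha-primase differences was not tested.

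Of 12 nucleases and helicases that act at telomeres with shelterin, 5 were on the higher side and 7 on the lower, with a median of −0.040. FEN1, the flap endonuclease of lagging-strand synthesis, had 983 and 785 (−0.33), with 3 probe sets between −0.35 and −0.30. NBN, a subunit of the MRE11 complex that TRF2 binds, had 1799 and 1483 (−0.28), with 5 probe sets between −0.30 and −0.089. DCLRE1B, encoding Apollo, the nuclease that TRF2 recruits to form the overhang, was at −0.22 on its brighter probe set and at 0.082 on the other. Among regulators of TERF1, 7 were measured. The tankyrase gene TNKS2, whose product modifies TRF1 and releases it from telomeres, had 384 and 537, a difference of 0.48 on its 1 probe set past the floor. NEK7, a kinase, had 593 and 468 (−0.34), with its other probe set at −0.30. The other tankyrase gene, TNKS, was at 0.049 and −0.011 on its probe sets past the floor.

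Telomerase genes and those of damage signalling held no gene past 1.2-fold when read from the brightest probe set. Over all genes 3.58% were lower and 4.96% higher by that size, and these are short lists. RIF1 of the damage list had a dimmer probe set at 0.42. Of 11 telomerase and assembly genes, 6 were on the higher side, with a median of 0.0031 and a range from −0.23 (DKC1) to 0.083 (RUVBL2). The other probe set of DKC1 was at −0.15. TERT, the reverse transcriptase, stood at 89.1 and 89.3, near the floor. Of 11 damage signalling genes, 9 were on the lower side, against 4884 of 10437 over all genes. The median of the 11 was −0.072, with a range from −0.17 (RNF8) to 0.13 (ATRIP). The kinase genes that sense unprotected ends were at −0.0079 (ATM) and −0.14 (ATR). Other telomeric DNA binders had a median of 0.010 over 7 genes. The IKK kinases and NF-kB subunits listed as partners of RAP1 outside the nucleus had a median of −0.013 over 4 genes (CHUK, IKBKB, RELA and NFKB1). That median lies between genes on opposite sides, IKBKB at −0.18 and RELA at 0.16. The 5 IKBKB probe sets past the floor ran from −0.33 to 0.036, and the 3 of RELA from 0.10 to 0.16. IKBKG of that list had no probe set past the floor.

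**Figure D3:**
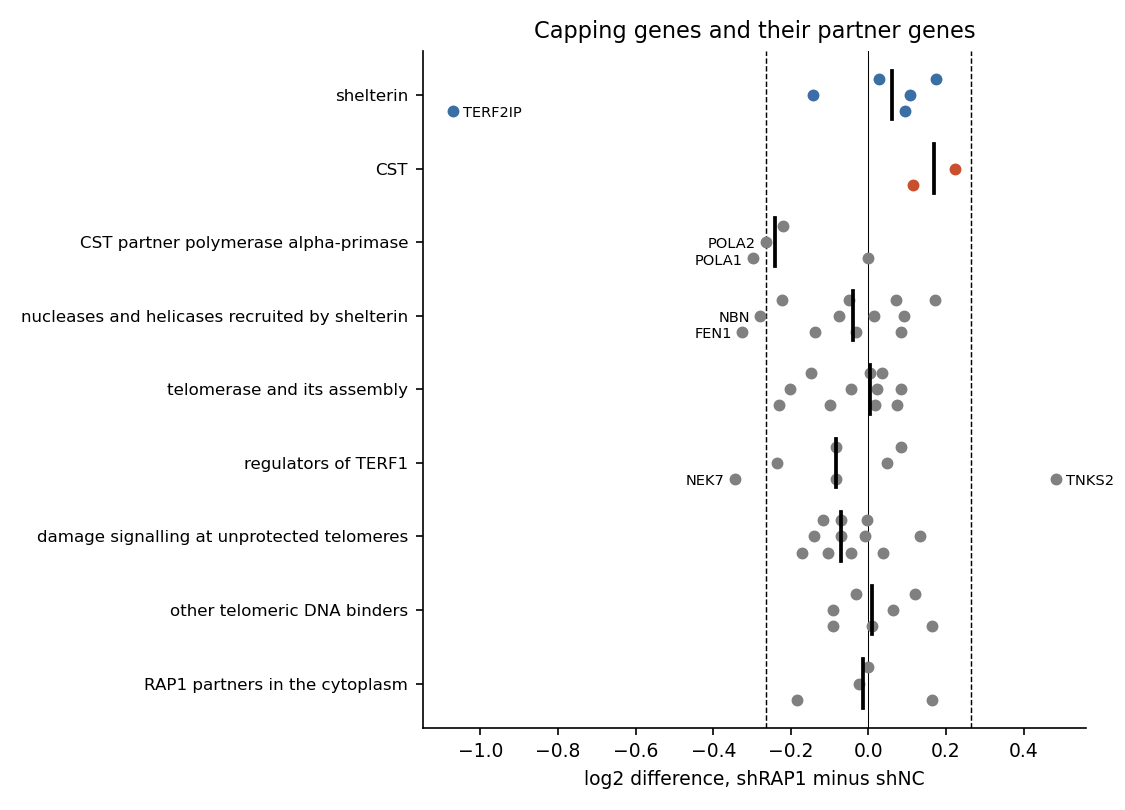
Log2 difference (shRAP1 minus shNC) of each measured gene of shelterin, CST and the 7 partner lists, 1 point a gene, with the list median as a black bar and 1.2-fold as dashed lines; genes past it are named, and vertical spread within a list has no meaning. The CST genes lie right of 0, the polymerase alpha-primase genes left of it or at 0, and TNKS2 at 0.48 is the only named gene on the right.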

How the data were processed

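RNA of the 2 HCT116 cultures was extracted with Trizol and labelled by 3′ in vitro transcription, per the labels' protocols. The authors deposited 1 intensity per probe set and array, on a linear scale. RMA is the tool named in the submitters' processing notes, and the sources used here give neither its version nor which arrays it normalised together. The linear scale was read from the values. RMA's quantile step makes differences relative to the other probes on the array.

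Probe sets were named through the platform annotation; those with several symbols (1832) or none (2473) were used for no gene. Log2 was taken with no pseudocount. A gene was its brightest probe set past the floor (10437 genes). The 9 members, RAP1A, RAP1B and the neighbours of TERF2IP were named by rule, as were partner genes past 1.2-fold, up to 3 per list and direction; other genes named were chosen after their values were seen. Of the neighbours of TERF2IP, CPHXL2 had no value here. The members and lists were chosen with earlier results of these data known. With 1 array per group no test was run, and precision is limited by the number of arrays. On simulated data the steps were checked with planted differences. These were larger than the differences of the capping genes other than TERF2IP, so differences as small as theirs were not checked. Promoter sequences are RefSeq's. Python 3.11.15, numpy 2.4.6, pandas 2.3.3 and statsmodels 0.14.6 were used, with matplotlib 3.10.9 for plots. Alternatives changed the gene value, centring, pseudocount, probe sets admitted, floor and fold size.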

Additional observations from a re-analysis of the deposited data

How the results depend on the processing

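TERF2IP kept its direction and stayed past 2-fold in size under the lowess trend (−1.05) and a pseudocount of 32 (−1.03), but it had no value without _x_at and _s_at probe sets, which left 0 capping genes lower by 1.2-fold in place of 1. TERF1 also had no value there, and its difference was −0.038 with the median of all its probe sets and no floor, which also gave a median of 0.043 over the capping genes. Leaving out TERF2IP, a choice made after seeing the data, gave 0.11. Of 103 recomputed values, 95 stayed close to the main value (within the SD at that brightness for a gene, the SD of all genes over the root of the list's size for a median, or 1.5 times for a count). Some of these could not move, because the same probe set was read again, as for TERF2 and STN1 without _x_at and _s_at probe sets. The SD for a gene was larger than most capping gene differences, so a small difference could change sign and still count as close. Among values that moved and are not given above, the median of telomerase genes was −0.072 with the floor at the 75th percentile. That of TERF1 regulators was 0.019 with that median and no floor, 0.018 without _x_at and _s_at probe sets and 0.049 with the higher floor, so its sign is not settled. That of other telomeric DNA binders was 0.11 without _x_at and _s_at probe sets. No paired analysis was possible because each group has 1 array. Values near or below the floor of 78.0, such as the dim probe sets of ACD, POT1 and CTC1, limit what can be read.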

Other observations

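Some telomere partner genes had probe sets that disagreed by more than most capping genes differed, and they are named after their values were seen. RIF1, a factor that protects ends from resection, had 7 probe sets past the floor between −0.18 and 0.42. MRE11, a nuclease of the end-processing complex, had 0.071 on its brightest probe set and −0.32 on the other past the floor. ATRX, a chromatin remodeller lost in cells that keep telomeres without telomerase, had 4 past the floor between −0.092 and 0.29. Of 49293 non-control probe sets, 4022 in shNC and 4008 in shRAP1 shared their exact value with another probe set of the same array. Among them were the dimmest TINF2 probe set and the dimmer one of TERF2, both at 161 on the shNC array.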
